A study of Mus musculus with 2 samples.

Results

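Fractalkine and its receptor were described across the immune cells of mosaic squamous cell carcinomas. The ligand gene Cx3cl1 and the receptor gene Cx3cr1 were found by their symbols in the feature list, and they make up 2 of the 31055 genes measured. Their transcripts were followed over cell classes gated on marker genes, over both tumours and over the spatial codes printed on the cells.

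Fractalkine is unusual among chemokines because it is made as a membrane-anchored protein, with the chemokine domain held on a mucin-like stalk. The metalloproteases ADAM10 and ADAM17 can cut it from the cell surface, so it acts both as an adhesion molecule and as a soluble attractant. Its receptor, CX3CR1, is a Gi-coupled receptor known from monocytes, tissue macrophages, microglia and subsets of cytotoxic lymphocytes.

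All cells came from untreated FVB mice carrying subcutaneous tumours grown from a mixture of the carcinoma lines CIT6 (YFP) and CIT9 (RFP). Oligonucleotide codes had been printed by light onto tumour sections, in areas holding YFP+ cells, RFP+ cells or both; the code belonging to each kind of area is not stated. The sections were then digested with collagenases I and IV, and cells bearing the leukocyte surface protein CD45 were sorted and sequenced with the 10x Genomics 3' v3 chemistry. There was 1 group with 2 samples, called replicate 1 and replicate 3 as in the labels. Nothing in the labels ties them to separate animals, so p-values speak for these 2 tumours only. The level of each tumour is taken out in the fits, and p-values rest on how differences between classes varied between the tumours. That spread is shared across genes. In most comparisons within macrophages a gene's own disagreement between the tumours counts little.

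The counts are UMIs, that is, distinct captured transcript molecules. After barcodes with fewer than 1000 UMIs, fewer than 500 genes or more than 10% mitochondrial UMIs were left out, 4818 cells of replicate 1 and 6734 cells of replicate 3 remained, with a median of 16798 and 21345.5 UMIs per cell. Levels are given as the gene's UMIs per 1000000 UMIs (CPM) summed over a class, and intervals around them are exact 95% Poisson intervals that cover counting error only. The class names were rebuilt here from marker genes, with thresholds set after the data had been seen. In replicate 1 14.8% of the cells and in replicate 3 23.4% passed no gate or more than one and stayed unassigned. The samples shared 9 cell barcodes.

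Cx3cr1 (ENSMUSG00000052336) lies on the minus strand of chromosome 9 at 119901616 to 120069879 in mm10, and the annotation gives it 3 transcripts. It overlaps 3 other genes on its own strand, among them Gorasp1, Csrnp1 and Xirp1, and 6 on the other strand. How the counting treated shared bases is not given in the sources used here. Cx3cl1 (ENSMUSG00000031778) lies on the plus strand of chromosome 8 at 94772009 to 94782427, has 6 transcripts and overlaps no annotated gene.

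Among the classes gated in both tumours, Cx3cr1 was highest in macrophages. Macrophages, gated on C1qa, C1qb, C1qc, Mrc1, Adgre1 and Apoe, held Cx3cr1 at 510 CPM in replicate 1 and 494 CPM in replicate 3, a mean of 502 ± 11.5 (SD, n = 2). A Cx3cr1 UMI was found in 77.9% of the 3024 macrophages of replicate 1 and in 95.9% of the 3331 of replicate 3. C1qa, a subunit of the complement component C1q, was detected in 98.9% and 98.3% of these cells. As a marker of the gate itself it is no independent check of the label. Macrophages carried 30611 of the 34451 Cx3cr1 UMIs in cells of replicate 1 and 44786 of the 56916 in replicate 3.

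Cells that passed the macrophage gate and also held monocyte markers had 257 CPM (44 cells) in replicate 1 and 447 CPM (128 cells) in replicate 3. Classical monocytes, gated on Ly6c2, Plac8, Chil3, Vcan and Hp, had 120 CPM in 82 cells of replicate 1 and 108 CPM in 337 cells of replicate 3. The order macrophage, mixed cell, monocyte was thus the same in both tumours, and no class interval overlapped the next in either. With gates of 1 more marker, the 14 mixed cells left in replicate 1 had 424 CPM. Ccr2, the receptor for CCL2, ran the other way, at 190 and 354 CPM in macrophages and 507 and 489 CPM in the mixed cells, against 976 and 673 CPM in classical monocytes. Patrolling monocytes, known as high expressers of CX3CR1 in mouse blood, were gated in replicate 3 alone, where 10 cells had 234 CPM with an interval of 183 to 295 CPM. Their name rests on the gate alone. Of its markers Treml4 was found in 100% of the cells, Spn and Eno3 in 90% and Ace in 40%. Ccr2 stood at 396 CPM in them, above the 354 CPM of the macrophages of that tumour.

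Set against classical monocytes, macrophages had 4.61-fold more Cx3cr1, a log2 difference of 2.21 ± 0.33 (SE) with an adjusted p of 1.93e-04 in edgeR's quasi-likelihood test. The difference was 2.09 in replicate 1 and 2.19 in replicate 3. In the same comparison 788 of 9887 genes, or 7.97%, were higher and 8.33% were lower, so a call by itself was common. The mixed cells also exceeded monocytes, by 1.64 ± 0.34 on the log2 scale (adjusted p = 0.0125; 2.24% of genes called). The macrophages and the mixed cells were not separated by the test, with an adjusted p of 0.813 and 0.678% of genes called. The log2 difference was 0.57 ± 0.31, and its interval by normal approximation ran from -0.04 to 1.18.

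**Figure D1:**
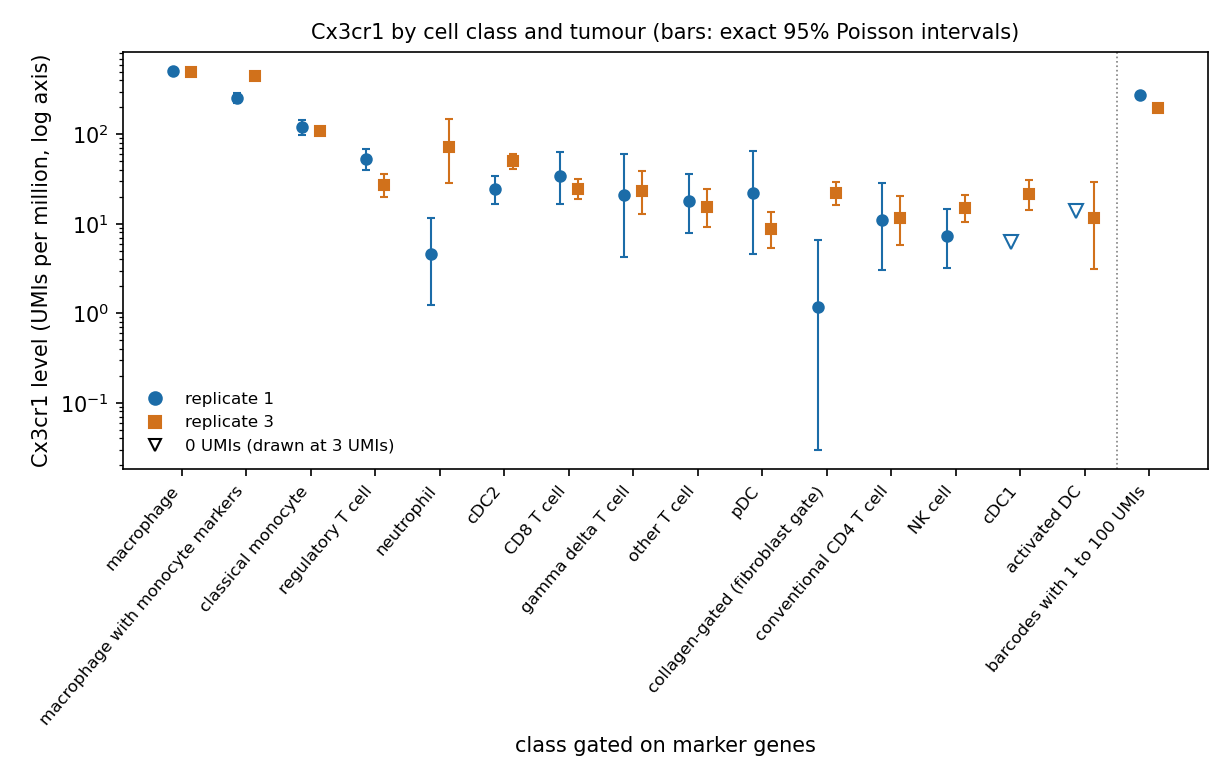
Cx3cr1 level (CPM) on a log axis, for each gated class and, at the far right, for barcodes with 1 to 100 UMIs, with replicate 1 as circles and replicate 3 as squares. Bars are exact 95% Poisson intervals and open triangles mark classes with 0 UMIs, drawn at 3 UMIs; macrophages sit highest at 510 and 494 CPM, and classical monocytes follow the mixed cells at 120 and 108 CPM.

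Conventional dendritic cells held much less receptor transcript than macrophages. Type 2 cells (cDC2, gated on Cd209a, Flt3, Klrd1, Napsa and H2-DMb2) had 24.2 CPM in 65 cells of replicate 1 and 49.9 CPM in 99 cells of replicate 3, each far below the macrophages of its own tumour. Relative to macrophages, cDC2 were 12.8-fold lower (log2 difference -3.68 ± 0.37, adjusted p = 1.14e-06; -4.38 and -3.30 in the tumours; 17.0% of genes called). A UMI was present in 16.9% and 38.4% of cDC2, at median depths of 19777 and 20433 UMIs. Type 1 cells (cDC1, gated on Xcr1, Clec9a, Wdfy4 and Naaa) had none in 16 cells of replicate 1, which allows up to 18.75% of cells with a UMI and a level of up to 6.33 CPM by a floor of 3 UMIs (exact interval up to 7.78 CPM), and 21.4 CPM in 40 cells of replicate 3. With gates of 1 more marker the replicate 3 values were 7.14 CPM in 21 cDC1 and 30.8 CPM in 89 cDC2. Migratory, Ccr7-bearing activated dendritic cells had 0 UMIs in 15 cells and 4 UMIs in 16 cells (11.5 CPM, and 3.48 CPM with the stricter gates). Plasmacytoid dendritic cells had 22.2 CPM from 3 UMIs in replicate 1 and 8.72 CPM from 20 UMIs in replicate 3.

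Lymphocytes held Cx3cr1 at low levels. Regulatory T cells had 53.2 CPM in 202 cells of replicate 1 and 27.0 CPM in 199 cells of replicate 3, and 12.9% and 11.6% of them had a UMI. They were below classical monocytes by a log2 difference of -1.68 ± 0.38 (adjusted p = 0.00155; 43.3% of genes called). CD8 T cells had 34.3 and 24.4 CPM in 37 and 235 cells. Conventional CD4 T cells had 11.1 and 11.5 CPM in 77 and 148 cells, and gamma delta T cells 20.8 and 23.5 CPM in 15 and 54 cells. Mast cells or basophils, gated in replicate 1 alone, had 175 CPM from 8 UMIs in 15 cells. B cells had 0 UMIs in 11 cells of replicate 1 and 147 CPM in replicate 3, from 6 UMIs in 1 of 6 cells.

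Natural killer cells, a class in which CX3CR1 marks mature stages in mouse, had 7.36 CPM from 8 UMIs in 71 cells of replicate 1 and 15.05 CPM from 33 UMIs in 146 cells of replicate 3. Both values lie below those of the CD8 T cells of the same tumour. The log2 difference of NK cells against CD8 T cells was -1.08 ± 0.52, with an interval by normal approximation of -2.11 to -0.05. In edgeR's quasi-likelihood test it missed the threshold before and after adjustment (unadjusted p = 0.0546, adjusted p = 0.329). In this comparison 4.61% of genes were called.

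Neutrophils differed between the tumours. They had 4.58 CPM from 4 UMIs in 308 cells of replicate 1 and 71.8 CPM from 7 UMIs in 26 cells of replicate 3, where a single cell held 6 of the 7. Against classical monocytes the log2 difference was -2.27 ± 0.62 (adjusted p = 0.00733; 39.5% of genes called), made of -4.54 in replicate 1 and -0.49 in replicate 3, while the median gene of that comparison stood at -0.45. The call did not hold once 10% of each class was subtracted as free RNA (-3.22, adjusted p = 0.0809).

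Along the order of mean levels over the tumours, the differences between neighbours from the regulatory T cells down did not pass the test. Regulatory T cells against neutrophils gave a log2 difference of 0.58 (adjusted p = 0.518; 46.6% of genes called), neutrophils against cDC2 -0.80 (0.360; 44.4%), and cDC2 against CD8 T cells 0.66 (0.290; 31.8%). CD8 T cells against the remaining T cells gave 0.73 (0.760; 0.202%), those against conventional CD4 T cells 0.55 (1.00; 0.0607%), and CD4 T cells against NK cells -0.20 (0.900; 13.9%). The sign changed between replicate 1 and replicate 3 for regulatory T cells against neutrophils (3.38 and -1.49) and neutrophils against cDC2 (-2.26 and 0.62). It also changed for cDC2 against CD8 T cells (-0.55 and 1.02) and CD4 T cells against NK cells (0.68 and -0.34). The others kept theirs, so the order of means was not shared by the tumours.

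Free RNA bears on these low values, although the classes other than macrophages, mixed cells and classical monocytes had been gated to hold few macrophage marker UMIs. Classical monocytes had a looser limit, the lower bound of the macrophage gate. Barcodes with 1 to 100 UMIs, which are mostly empty droplets, held Cx3cr1 at 273 CPM in replicate 1 and 197 CPM in replicate 3, above every gated class but the macrophages in replicate 1, and but the macrophages, mixed cells and patrolling monocytes in replicate 3. Such barcodes carried 3.76 and 2.70 Cx3cr1 UMIs per 100 C1q UMIs, near the 3.75 and 3.604 of macrophages. Classical monocytes had 83.9 and 37.4, regulatory T cells 43.8 and 13.5, CD8 T cells 47.6 and 10.9, and cDC2 16.2 and 18.2 per 100 C1q UMIs. All lie above the free barcodes of their tumour. The C1q genes are among the macrophage markers that the gates of these classes limit, which raises the ratio in advance. It therefore cannot separate a cell's own transcript from free RNA. Neutrophils had 2.15 in replicate 1, below the free barcodes, and 25 in replicate 3. At median depths of 2520 UMIs for neutrophils and 13912 for NK cells in replicate 1, 1.30% and 11.3% of the cells had a UMI.

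Over 20 sums (10 classes in 2 tumours) and 5469 genes, the profile of Tmem119, a microglial surface marker, correlated with that of Cx3cr1 at r = 0.949, and that of Fam213b at r = 0.960. The sorting nexins Snx6 and Snx2 had r = 0.944 and 0.924, the lysosomal acid phosphatase Acp2 0.938, the lysosomal ATPase Atp13a2 0.938 and the lysosomal protease Lgmn 0.929. Sash1 at 0.925, the selenium carrier Selenop at 0.923 and the integrin subunit Itgb5 at 0.923 completed the 10 nearest. The sums share libraries and depth, gate markers were left out, and r is a description here.

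Genes of the ligand's release and of the receptor's signalling were called at shares near the background in macrophages against monocytes. Of 8 genes for the shedding and anchoring of fractalkine, 7 could be tested in macrophages against monocytes, and Adam10 alone was called, where 16.3% of all genes were, at 64.8 CPM in macrophages and 100.4 CPM in monocytes (log2 difference -0.60, adjusted p = 0.0156). Its partner Adam17 had 76.9 CPM in macrophages and 97.0 CPM in monocytes (-0.28, adjusted p = 0.384). The median of the 7 was -0.28, against 0.02 over all genes. Of 12 genes of receptor signalling (Gi subunits, arrestins, kinases and effectors), Grk2, a kinase that desensitises receptors, was lower in macrophages (112 against 176 CPM, -0.59, adjusted p = 0.0232) and the other 11 did not pass, with a median of -0.40.

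Neutrophils against monocytes, with 39.5% of all genes called, gave more. In the signalling list the kinase Syk (638 CPM in neutrophils against 157 CPM in monocytes, log2 difference 2.69), the GTPase Rac2 (2.03), the Gi subunit Gnai3 (1.53) and Grk2 (0.85, though -0.34 in replicate 1) were higher in neutrophils, and Grk3 (-2.46) and the G protein subunit Gnb1 (-0.74) lower, with a median of 0.45 against -0.45 over all genes. Of 7 shedding and anchoring genes, the integrin subunit Itgb3 was higher (13.2 against 0.400 CPM, 5.36) and Adam10 lower (50.8 against 100.4 CPM, -0.72). In NK against CD8 T cells, with 4.61% of all genes called, Itgb3 (40.4 against 8.75 CPM, 2.06) and Syk (14.4 against 3.52 CPM, 2.11) were higher and the other 6 and 11 genes of these lists did not pass.

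In cDC2 against macrophages the integrin subunit Itgb3 was higher (6.36 against 1.497 CPM, log2 difference 2.10, adjusted p = 0.00201) and its partner Itgav lower (15.9 against 45.1 CPM, -1.35, adjusted p = 0.00109), and the remaining 5 of 7 shedding and anchoring genes did not pass. In the signalling list Grk3 (1.32) and the phospholipase Plcb2 (1.13) were higher in cDC2 and the arrestin Arrb2 (-0.76) lower. In this comparison 8.96% of all genes were higher and 8.08% lower. The lists' medians were -0.41 and 0.16, against 0.00 over all genes.

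Genes known from homeostatic microglia were mostly higher in macrophages than in monocytes and cDC2. In macrophages against monocytes 8 of the 10 members tested were higher and the other 2 did not pass, with a median of 2.09. Of all genes 7.97% were higher and 8.33% lower there. Gpr34, a lysophosphatidylserine receptor, stood at 136 CPM in macrophages and 5.02 CPM in monocytes, and the Fc receptor-like gene Fcrls at 211 and 5.88 CPM. The ADP receptor P2ry12 had 35.2 CPM in macrophages and 9.33 CPM in monocytes. In cDC2 against macrophages 8 of the 10 were lower and Selplg, a ligand of selectins, was higher, with a median of -3.50. Of all genes 8.08% were lower and 8.96% higher in that comparison. In neutrophils against monocytes Selplg (2.70) and P2ry13 (2.33) were higher, Trem2 (-1.93) and Csf1r (-1.33) lower and 6 did not pass, with a median of -0.14. The share called was near the 39.5% called over all genes. In NK against CD8 T cells, with 4.61% of all genes called, 0 of the 10 passed in edgeR or in DESeq2, and 1 did at an unadjusted p under 0.05. Of 9 tissue-resident macrophage genes tested, 6 were higher and 1, F13a1, lower in macrophages than in monocytes. DESeq2 called 7 higher and 0 lower.

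Within the macrophages the receptor was spread unevenly. To compare cells at equal depth, each was thinned to 5000 UMIs, which kept 2909 macrophages of replicate 1 and 3261 of replicate 3. The mean was then 2.36 and 2.48 Cx3cr1 UMIs per cell. In replicate 1 34.0% of these cells had none, against 9.41% for a Poisson spread of that mean, and in replicate 3 19.0% had none, against 8.35%. At the other end 18.7% and 16.7% had at least 5 UMIs, with a highest cell of 22 and 31. The variance was 3.21 and 2.17 times the mean, so cells of replicate 1 were the more uneven at nearly the same mean.

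**Figure D2:**
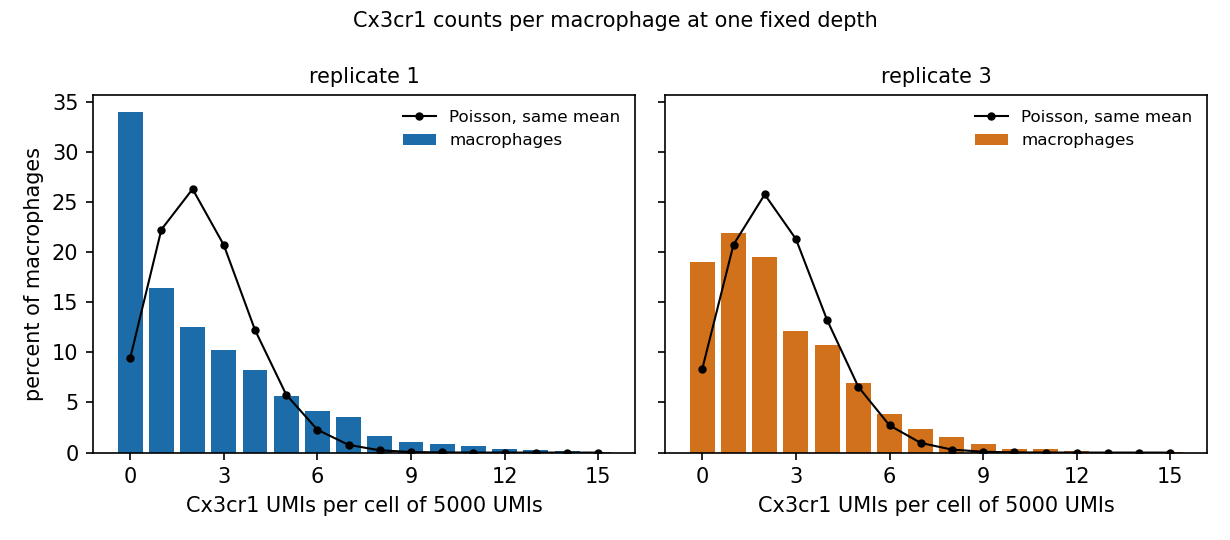
Percent of macrophages by their Cx3cr1 UMIs after thinning to 5000 UMIs per cell, replicate 1 left and replicate 3 right; dots give a Poisson spread with the same mean. Cells with 0 UMIs make up 34.0% and 19.0%, above the 9.41% and 8.35% of the Poisson spread, and both tails reach beyond it.

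Gates within the macrophages separated higher from lower Cx3cr1 only in part. Macrophages of the Folr2 gate (Folr2, Fcna, Cbr2, Lyve1), a tissue-resident phenotype, had 608 CPM in replicate 1 and 598 CPM in replicate 3, against 448 and 486 CPM in the other macrophages. The log2 difference was 0.32 ± 0.06 (adjusted p = 2.93e-04; 8.14% of genes called), at 0.44 and 0.30 in the tumours. Macrophages of the Vcam1 gate (Vcam1, Hes1) had 636 and 625 CPM, against 437 and 490 CPM in the rest, a log2 difference of 0.46 ± 0.11 (adjusted p = 0.00159; 5.82% called). The values of both gates lay above those of the rest in each tumour. Neither call held in DESeq2 (adjusted p = 0.0991 for Folr2 and 0.0769 for Vcam1) or after thinning to 3000 UMIs (0.109 and 0.145).

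The other gates gave no stable difference. Macrophages gated on the stress genes Hmox1, Fbxo32 and Mt2 had 273 CPM in 647 cells of replicate 1 and 503 CPM in 109 cells of replicate 3, against 530 and 496 CPM in the rest. The log2 difference of -0.50 ± 0.12 had an adjusted p of 0.00463 (3.75% called) but -0.96 in replicate 1 and 0.02 in replicate 3, and with a robust estimate of the spread the adjusted p was 0.480. Cells of the type I interferon gate had 253 and 482 CPM, against 479 and 497 CPM in the rest (log2 difference -0.46, adjusted p = 0.285; 3.32% called), so that replicate 1 again carried the difference. Spp1-gated cells had 440 and 413 CPM, against 480 and 515 CPM (-0.23, 0.136; 3.07%), and Mgl2-gated cells 418 and 350 CPM, against 475 and 504 CPM (-0.30, 0.231; 4.45%). Dividing macrophages had 628 CPM in replicate 1 and 403 CPM in replicate 3, against 465 and 511 CPM in the rest, with opposite directions and a log2 difference of -0.07 (adjusted p = 0.820; 16.7%). Cells of the interferon-gamma gate had 477 and 498 CPM, against 472 and 496 CPM (0.07, 0.956; 2.34%).

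**Figure D3:**
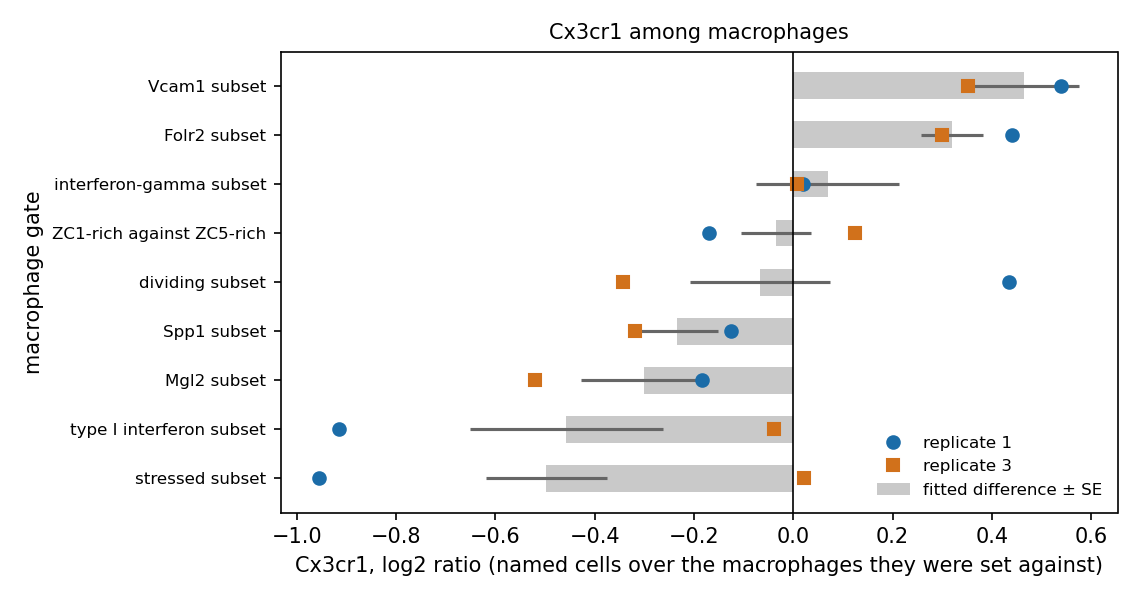
Log2 ratio of Cx3cr1 in macrophages of each gate over the other macrophages, and in ZC1-rich over ZC5-rich macrophages; grey bars with whiskers are the fitted difference ± SE, and symbols the ratio in replicate 1 and replicate 3. The Vcam1 and Folr2 gates lie above 0 in both tumours, and the stressed, dividing and code contrasts change sign between them.

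Whether the receptor varied with position in macrophages could not be decided from the codes, since the areas they mark are not stated. No difference shared by both tumours was detected. Replicate 1 carried ZC1, ZC2 and ZC5 and replicate 3 carried ZC1, ZC5 and ZC6, so the share of ZC1 among ZC1 plus ZC5 UMIs was the measure common to both. Tertiles of this share were cut within each tumour, so their names are relative. The median share was 59.4% in the ZC1-rich and 31.8% in the ZC5-rich tertile of replicate 1. In replicate 3 it was 31.7% and 15.9%. The ZC1-rich tertile had 475 CPM in replicate 1 and 514 CPM in replicate 3. The ZC5-rich tertile had 534 and 471 CPM, and the middle tertile 524 and 498 CPM. The trend was downward with ZC1 in replicate 1 and upward in replicate 3. Between the ZC1-rich and ZC5-rich tertiles the log2 difference was -0.03 ± 0.07, with an interval by normal approximation of -0.17 to 0.10 (adjusted p = 1.00). Of 12649 genes 1 was called, which is 0.00791%, and 302 were higher and 172 lower at an unadjusted p under 0.05. That gene, named after its values had been seen, was S100a8, an abundant neutrophil transcript, at 28.3 CPM in ZC1-rich and 11.4 CPM in ZC5-rich macrophages (adjusted p = 0.00854). The monocytes of replicate 1 had a median ZC1 share of 67.9%, against 43.3% in macrophages with and 43.3% in macrophages without a detected Cx3cr1 UMI; in replicate 3 the shares were 25.7%, 22.9% and 22.8%.

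Macrophages with a Cx3cr1 UMI after thinning were set against those without, 1921 and 988 cells in replicate 1 and 2640 and 621 in replicate 3. Of 10 homeostatic microglial genes 6 were higher in the detected cells, and of 12 interferon-stimulated genes 8 were lower. Of 10903 genes tested, 76 (0.697%) were higher and 152 (1.39%) lower at an adjusted p under 0.05, and 219 of the 228 had the same direction in both tumours. The count rests on the model. DESeq2 called 10 higher and 21 lower. A quasi-likelihood fit in edgeR without the tumour as a block called 0 and 0 (47 and 48 at an unadjusted p under 0.05). In all 6 fits that kept both the block and the filter on low counts, 6 higher and 9 lower genes passed. Full depth was not matched between the sides, with medians of 20604 against 16791 UMIs in replicate 1 and 23902.5 against 25667 in replicate 3.

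The 6 genes that rose in every such fit were Fcrls, Cbr2, Gpr34, Stab1, Rnase4 and Maf. Fcrls had 242 CPM in detected and 80.7 CPM in other macrophages, a log2 difference of 1.49 ± 0.16 (adjusted p = 2.72e-18), at 1.79 in replicate 1 and 1.22 in replicate 3. The carbonyl reductase Cbr2 had 56.5 against 22.1 CPM (1.32), and Gpr34 159 against 77.9 CPM (1.01). The scavenger receptor Stab1 stood at 177 against 87.8 CPM (0.98, with 1.03 and 0.99 in the tumours), the ribonuclease Rnase4 at 277 against 139 CPM (0.97) and the transcription factor Maf at 241 against 131 CPM (0.85). Maf was named after its values had been seen.

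The 9 genes that fell in every such fit were led by Mmp12, the macrophage metalloelastase, with 41.0 CPM in detected and 289 CPM in other macrophages (log2 difference -2.48 ± 0.17, adjusted p = 1.93e-43), at -2.95 in replicate 1 and -1.70 in replicate 3. Ifitm1, an interferon-induced membrane protein, had 75.1 CPM in detected macrophages (-1.33), Cxcl9, a chemokine induced by interferon-gamma, 126 against 329 CPM (-1.32), and Isg15 70.8 against 126 CPM (-0.89). Slc2a1, the glucose transporter GLUT1, had 77.2 against 165 CPM (-0.97), and Slc7a11, the cystine transporter, 25.9 against 62.5 CPM (-1.205). The decoy receptor Il1r2 (-1.10), the arginine-making enzyme Ass1 (-1.01) and AA467197 (-1.57) completed them. Except for Mmp12 and Ifitm1, and for Cxcl9 and Isg15 as members of a list, these were named after their values had been seen.

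Other genes with a large fitted difference varied more between the tumours or the fits. On the higher side, the chemokine Ccl12 had a log2 difference of 1.32 but 2.06 in replicate 1 and 0.68 in replicate 3, and the lysosomal sulfatase Arsb 1.01 with 1.84 and 0.43. P2ry13 (1.18), Rapsn (1.13), the integrin subunit Itga6 (1.06), Igfbp4 (1.00) and Paox (0.95) were positive in both tumours. On the lower side, the haem-degrading enzyme Hmox1 had -2.50 in replicate 1 and -0.06 in replicate 3, and Rsad2 -2.70 and -0.36. The chemokine Ccl5 (-1.91), Tnfrsf9 (-1.89), the clotting factor F10 (-1.73), Il7r (-1.55), the protease Adam8 (-1.47), Mmp13 (-1.40), Clec4d (-1.39) and Hal (-1.38) were negative in both. Of the 12 named on each side, 12 higher and 7 lower also passed with a robust estimate of the spread, and 7 and 3 in DESeq2.

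By list, 6 of 10 homeostatic microglial genes tested were higher (Fcrls, P2ry13, Gpr34, P2ry12, Olfml3 and Tmem119) and the other 4 did not pass, with a median of 0.77 against -0.01 over all genes. Tmem119 had 152 CPM in detected and 87.0 CPM in other macrophages, and P2ry12 39.1 and 21.9 CPM. Of all genes 0.697% were higher and 1.39% lower in this comparison. DESeq2 called 2 of the 10 homeostatic genes. Of 12 interferon-stimulated genes 8 were lower, 7 of them also with the robust estimate and 2 in DESeq2, and the median was -0.95. Irf7, a transcription factor of the interferon response, had 53.0 CPM in detected and 91.3 CPM in other macrophages.

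Smaller groups of the other lists passed, where 0.697% of all genes were higher and 1.39% lower. Of 12 tissue-resident genes Cbr2, Stab1 and Ccl8 were higher (median 0.19), of 11 monocyte genes Thbs1, Clec4e and Plac8 were lower (-0.66), and of 11 lipid-associated genes Ctsk, Cd9 and Lgals3 were lower (-0.36). The call of Ctsk was lost with the robust estimate. DESeq2 called 2 tissue-resident genes higher, 0 monocyte genes and 2 lipid-associated genes lower. It called 0 genes of the inflammatory and chemokine receptor lists. In the inflammatory list Il1a was lower (-1.11) among 10 tested, and among 9 other chemokine receptors Ackr3, a scavenging receptor for CXCL12, was lower (-1.56). In edgeR 0 of 8 shedding and anchoring genes, 0 of 12 signalling genes, 0 of 9 dissociation-stress genes, 0 of 12 cell cycle genes, 0 of 9 class II presentation genes and 0 of 9 genes of NK maturation passed, and DESeq2 also called 0. At an unadjusted p under 0.05 the numbers were 0, 3, 1, 2, 1 and 1 in that order.

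**Figure D4:**
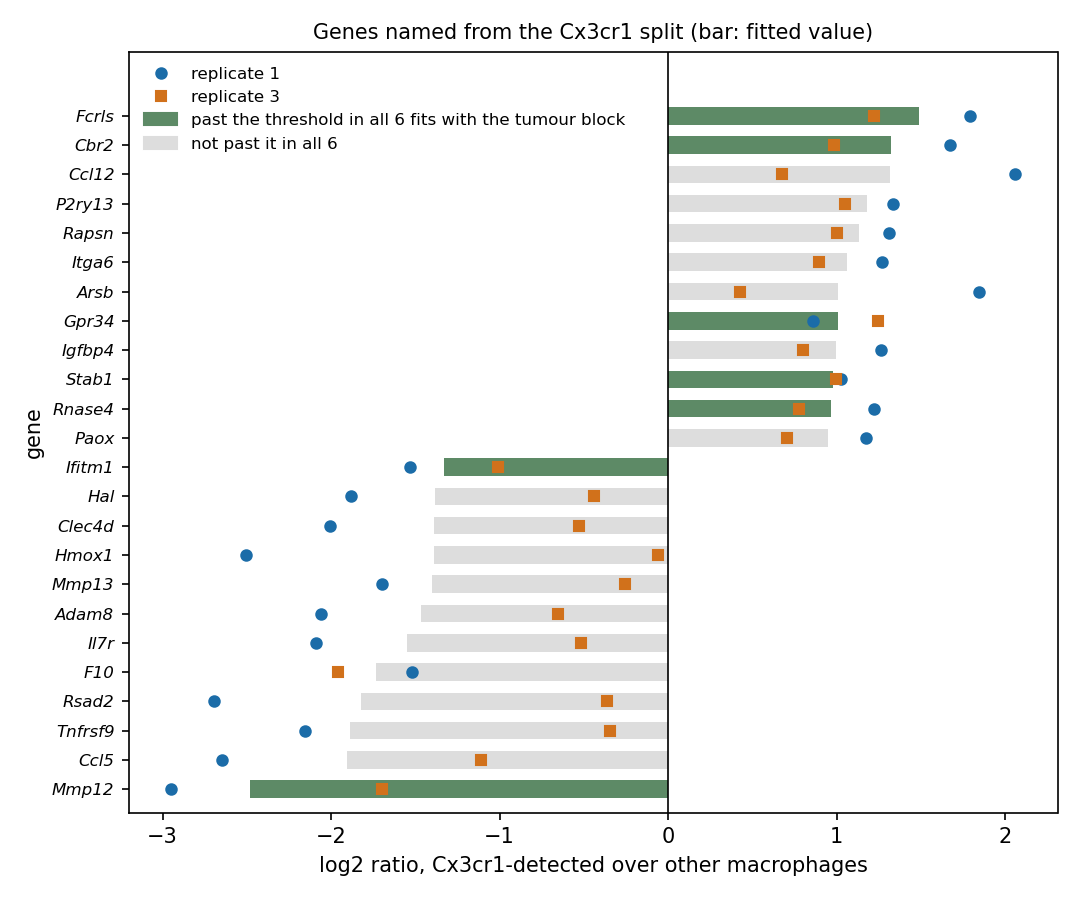
Log2 ratio in Cx3cr1-detected over other macrophages for the 12 genes named on each side; bars are the fitted value, green where the gene passed in all 6 fits with the tumour as a block, and symbols are replicate 1 and replicate 3. Fcrls leads the higher side at 1.49 and Mmp12 the lower side at -2.48, while Hmox1 stands at -2.50 in replicate 1 and -0.06 in replicate 3.

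In replicate 1 the stressed gate took in 647 of the 2909 thinned macrophages, and 44.0% of these had a Cx3cr1 UMI, against 72.3% of the rest. In replicate 3 it took in 109 of 3261, with 81.7% and 80.9%. Its part in the gene differences of replicate 1 was not tested.

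The ligand was rare. The cells held 97 Cx3cl1 UMIs in 67 cells of replicate 1 and 163 in 95 cells of replicate 3, or 1.196 and 1.01 CPM. The highest levels were found in activated dendritic cells and in a few collagen-expressing cells that had passed the CD45 sort.

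Cells gated on Col1a1, Col1a2, Col3a1, Dcn and Pdgfra numbered 19 and 37. They carried Cx3cl1 at 18.8 CPM (16 UMIs in 7 of 19 cells, interval 10.8 to 30.6 CPM) in replicate 1 and 35.4 CPM (76 UMIs in 22 of 37 cells, interval 27.9 to 44.3 CPM) in replicate 3. They made up 0.394% and 0.549% of all cells, and 16 of the 97 and 76 of the 163 ligand UMIs in cells were theirs. Macrophages had 0.517 CPM (31 UMIs in 3024 cells) and 0.408 CPM (37 UMIs in 3331 cells), so both tumours showed the collagen-gated cells far above them. The log2 ratio was 5.21 in replicate 1 and 6.43 in replicate 3, with a mean of 5.82 ± 0.86 (SD, n = 2). The main fit gave no test, since the class fell under 20 cells in replicate 1. Cx3cl1 also did not pass the filter on low counts among classes of at least 20 cells. A fit that admitted smaller classes is given below.

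These cells could not be named fibroblasts from their markers alone. Col1a1 was detected in 100% and 97.3% of them, and Ptprc, which encodes CD45, in 15.8% and 21.6%. A YFP or RFP UMI was found in 17 of 19 cells of replicate 1 and in 23 of 37 of replicate 3. The keratin Krt5 was at 0 UMIs in both tumours and Krt14 was found in 0% and 10.8% of the cells. The keratin Krt18 was found in 10.5% and 32.4% of them (3.53 and 454 CPM) and Krt8 in 10.5% and 2.70% (2.35 and 82.9 CPM). Epcam was found in 0% and 2.70%. With a reporter UMI, 6 of 17 and 17 of 23 cells had Cx3cl1 (19.5 and 43.0 CPM), against 1 of 2 and 5 of 14 without one (12.2 and 16.3 CPM). YFP was found in 57.9% and 13.5% of the collagen-gated cells and RFP in 63.2% and 62.2%, at median depths of 33519 and 41018 UMIs. In macrophages, which should lack the reporters, YFP was found in 1.69% and 0.330% of cells and RFP in 1.85% and 0.570%, at 18924.5 and 24000 UMIs. In replicate 1 another 24 cells with collagen markers had stayed unassigned, and they held 24 Cx3cl1 UMIs (23.2 CPM), whereas 17 such cells of replicate 3 held 1 UMI (1.45 CPM).

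Activated dendritic cells, gated on Ccr7, Fscn1, Ccl22, Cacnb3 and Socs2, had Cx3cl1 at 60.6 CPM (13 UMIs in 8 of 15 cells, interval 32.3 to 103.6 CPM) in replicate 1 and 17.3 CPM (6 UMIs in 3 of 16 cells, interval 6.34 to 37.6 CPM) in replicate 3. The log2 ratio to macrophages was 6.90 in replicate 1 and 5.50 in replicate 3, with a mean of 6.20 ± 0.99 (SD, n = 2). For the same reasons the main fit gave no test. The other dendritic cells held little: cDC2 had 0.734 CPM from 1 UMI and 2.60 CPM from 6 UMIs, and cDC1 and plasmacytoid cells had 0 UMIs in both tumours. For the cDC1 of replicate 3 a count of 0 allows a level of up to 2.29 CPM by a floor of 3 UMIs, and the exact interval reaches 2.82 CPM. Both genes could be tested in these small classes in a fit that admitted classes of 15 cells, a limit chosen after the data had been seen. In edgeR's quasi-likelihood test the ligand was higher than in macrophages in activated dendritic cells (log2 difference 6.35 ± 0.99, adjusted p = 1.01e-04). It was also higher in collagen-gated cells (5.65 ± 0.78, adjusted p = 6.49e-06). In cDC1 it was not separated from macrophages (-4.69 ± 6.04, adjusted p = 0.661). The receptor was tested in the same classes. It was lower than in macrophages in cDC1 (log2 difference -5.08 ± 0.57, adjusted p = 6.81e-07; 18.9% of genes called), in activated dendritic cells (-6.12 ± 0.80, 3.84e-06; 19.3%) and in collagen-gated cells (-5.42 ± 0.54, 1.41e-08; 47.2%). Collagen-gated cells had 1.18 CPM of Cx3cr1 in replicate 1 and 21.9 CPM in replicate 3, where 28 of the 47 UMIs lay in 1 cell, and 10.5 and 2.07 CPM with gates of 1 more marker. Fits to classes with 0 or 1 UMIs in a tumour depend on the prior count.

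**Figure D5:**
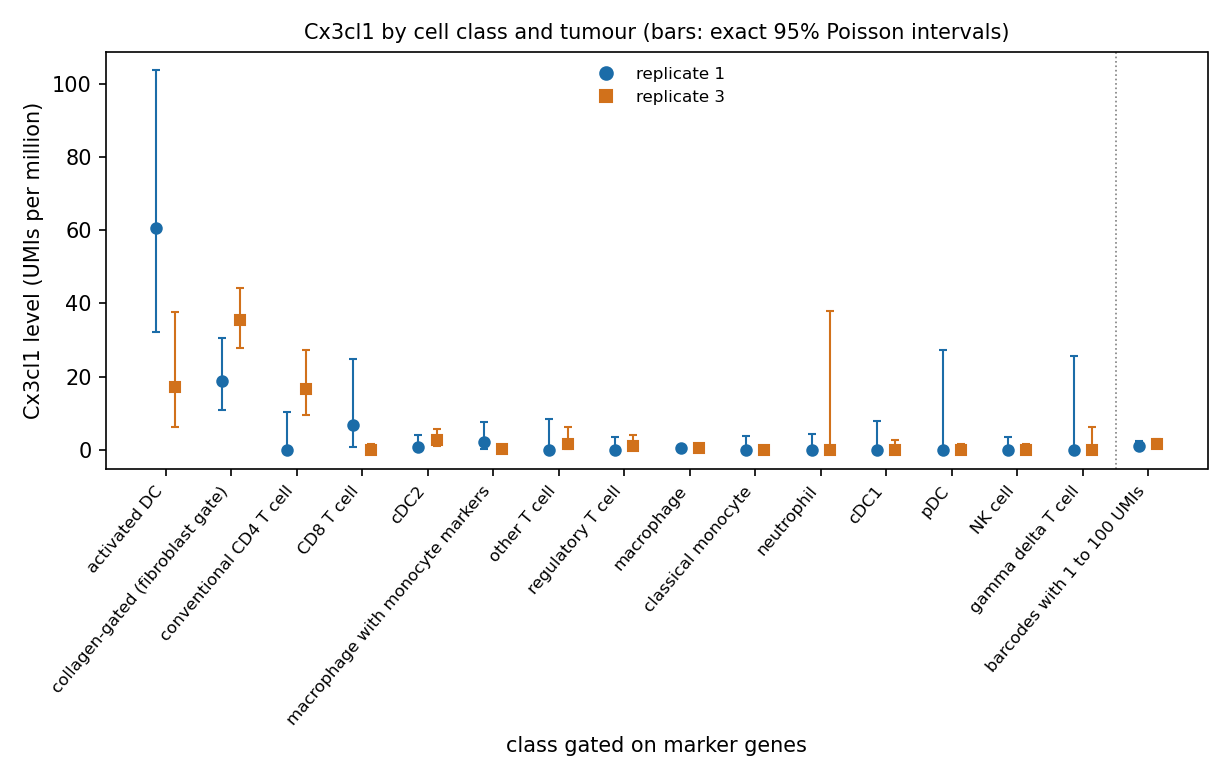
Cx3cl1 level (CPM) on a linear axis, by gated class and, at the far right, in barcodes with 1 to 100 UMIs, with replicate 1 as circles, replicate 3 as squares and exact 95% Poisson intervals. Activated dendritic cells (60.6 and 17.3 CPM) and collagen-gated cells (18.8 and 35.4 CPM) stand above macrophages at 0.517 and 0.408 CPM, and the wide intervals of small classes come from few UMIs.

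A further class had ligand UMIs in replicate 3. Conventional CD4 T cells had 0 Cx3cl1 UMIs in 77 cells of replicate 1 and 16 UMIs in 8 of 148 cells of replicate 3, or 16.7 CPM with an interval of 9.57 to 27.2 CPM. The count of 0 in replicate 1 allows up to 8.33 CPM by a floor of 3 UMIs, and its exact interval reaches 10.2 CPM, which overlaps that of replicate 3. CD8 T cells had 2 UMIs in 1 cell of replicate 1 and 0 in replicate 3, and NK cells, gamma delta T cells, neutrophils, B cells and classical monocytes had 0 in both. Barcodes with 1 to 100 UMIs held 1.00 and 1.73 CPM, so the 0.517 and 0.408 CPM of macrophages and the low values of cDC2 lie within or near what free RNA holds.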

How the data were processed

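The authors deposited raw UMI counts per gene and barcode, which are used as deposited; the submitters' processing notes name Cell Ranger 4.0 and mm10, and how intronic or overlapping reads were counted is not given in the sources used here. Gene positions come from GENCODE vM21 on mm10. Codes and reporters were kept out of the gene totals. The gene lists, the members and the gates were chosen with earlier results of these data known.

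Classes were gated on 3 or more marker genes (4 for the collagen gate, with a minimum share of marker UMIs for macrophages); the scrublet doublet caller marked 0 and 0 cells and so had not worked, and an alternative removed its 186 and 363 highest-scoring cells. Counts were summed per tumour and class with at least 20 cells and tested with edgeR 4.0.16 (TMM, filterByExpr, quasi-likelihood test), with the tumour as a block because all classes share their tumours, and Benjamini-Hochberg adjustment over all genes tested at 0.05, leaving out all gate markers between classes, and the markers of the gates compared within macrophages. Ratios per tumour use 0.5 added UMIs and carry no test.

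Named beside the members were the 10 genes with the nearest profile (log2 of CPM + 10, mean CPM of at least 20), the 12 with the largest change on each side of the Cx3cr1 comparison, and members of 13 lists that passed. Comparisons between 4 sums leave 1 residual degree of freedom, where genes moved by 1 tumour could be called, so a robust fit was added. Alternatives included DESeq2 1.42.0, no block, stricter gates, thinning and leaving out each tumour. The scripts were tested on simulated data. Sequences were not used here.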

Additional observations from a re-analysis of the deposited data

Results flagged for a closer look

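A set of 3 comparisons of Cx3cr1 within the macrophages changed direction between the tumours; the differences between tumours were not tested, since each tumour is 1 sample. In dividing against other macrophages the log2 ratio was 0.43 in replicate 1 and -0.34 in replicate 3, a gap of 0.7757. In stressed against other macrophages it was -0.96 in replicate 1 and 0.02 in replicate 3, a gap of -0.9753. In ZC1-rich against ZC5-rich macrophages it was -0.17 in replicate 1 and 0.12 in replicate 3, a gap of -0.2941.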

How the results depend on the processing

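The calls of Cx3cr1 in macrophages over monocytes and in cDC2 against macrophages kept their direction and their side of the threshold under every alternative that gave a test; the neutrophil call against monocytes was lost with 10% free RNA subtracted (-3.22). The subset calls were less stable. For the Folr2 gate the log2 difference was 0.32 in DESeq2, 0.37 with stricter gates and 0.28 after thinning to 3000 UMIs, and for the Vcam1 gate 0.47 in DESeq2 and 0.38 after thinning, none of them past the threshold. The stressed gate gave -0.47 in DESeq2 and -0.50 with the robust spread, neither past it, and 0.021 without replicate 1. The type I interferon gate passed with stricter gates (-0.62), and the interferon-gamma gate turned to -0.028 after thinning. The cause was not tested. With the tumour left out as a replicate block, Folr2 had 0.32, Vcam1 0.46 and stressed -0.41, none past the threshold, and the Cx3cr1 split called 0 higher and 0 lower genes; over 45 pairs of classes the deviations of the same tumour correlated at 0.063 to 0.476, above 0.1 in 38. The split called 10 higher and 21 lower genes in DESeq2, 19 and 49 with stricter gates, 35 and 80 with the highest doublet scores removed, and 9 and 23 after thinning to 3000 UMIs. The stricter setting also raised the minimum for the gates that take cells out of the macrophages. It therefore held more macrophages, 3072 and 3430 against 3024 and 3331, and was not a purer set of them.

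Leaving out each replicate gave log2 differences of 2.09 to 2.19 for macrophages over monocytes, -4.38 to -3.30 for cDC2 over macrophages, -4.54 to -0.49 for neutrophils over monocytes, -2.20 to -0.69 for NK over CD8 T cells, -0.17 to 0.12 for ZC1-rich over ZC5-rich macrophages, 0.30 to 0.44 for Folr2, 0.35 to 0.54 for Vcam1, 0.0067 to 0.019 for interferon-gamma and -0.96 to 0.021 for stressed, all without a test. Of 96 other values of the members' levels, 87 lay within 1 SD of the mean and 9 did not; of 216 values for named genes of the split, 155 kept their call, 58 lost it, 3 moved without a test and 0 reversed. Neutrophils had too few cells at 3000 UMIs, and the stricter Mgl2, Vcam1 and Spp1 gates gave no value. The robust spread, the limit of 15 cells and the thinning of subset sums were chosen after seeing the data. Small classes and 2 tumours limit the precision of every low level.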

Other observations

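The 8 conventional CD4 T cells of replicate 3 with a Cx3cl1 UMI differed in other transcripts from the 140 without one. Csf2, the gene of the growth factor GM-CSF, was found in 6 of the 8 cells at 1700 CPM and in 10 of the 140 at 288 CPM. Il13 was found in 5 of the 8 at 238 CPM and in 5 of the 140 at 31.2 CPM, and the chemokine receptor Cxcr6 in 8 of the 8 at 789 CPM and in 73 of the 140 at 451 CPM. Median depth was 15689 UMIs in the 8 cells and 4996 in the 140. These genes were chosen after their values had been seen, the cells come from 1 tumour, and no test was made.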
